A study of Mus musculus with 15 samples.

Results

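Prostate epithelial lines transformed by ha-ras were compared with untransduced primary cultures of the same epithelium. The comparison took all arrays titled Ras-overexpression and all arrays titled PEC control, 3 and 3 of the 15 arrays in the series, and covered the 19938 genes with a probe set of their own. Both groups came from the ventral prostate of FVB mice, and per the labels neither received a drug or other treatment. The Ras cells began as primary prostate epithelial cultures, were transduced with ha-ras and had become stable lines grown in DMEM with 10% FBS. The control cultures carried no transduced gene, grew in a medium for primary prostate epithelium and were moved to DMEM with 10% FBS for the night before harvest. Cells were collected at 85% to 90% confluence. Transduction, line selection and medium history thus differ together between the groups and cannot be told apart. The remaining 9 arrays, 3 each of lines transformed by c-myc, neuT or v-src, were used only to test whether a gene differed between Ras and the other oncogene lines. The series' design text gives 3 lines for each oncogene. No label says whether the arrays of a group were separate lines, cultures or animals, so p-values rest on the spread among these samples alone, and part of it may be technical. The sources used here give no age, vector or promoter.

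RAS is a membrane-bound switch that binds GTP after growth factor receptors fire and passes the signal to the RAF, MEK and ERK kinases, to PI3-kinase and to the RAL exchange factors. Exchange factors load it, GTPase-activating proteins switch it off, and ERK induces its own inhibitors, among them the Sprouty, Spred and dual-specificity phosphatase genes. The prostate gland is built from keratin-rich basal and luminal epithelial cells held together by E-cadherin, claudins and desmosomes. Epithelial cells that lose these contacts and gain vimentin and N-cadherin are said to undergo epithelial-mesenchymal transition, which transcription factors of the ZEB, TWIST, SNAI and PRRX families can drive.

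The comparison of level means shows large differences both ways. With a 2-fold minimum and an adjusted p below 0.05, 590 genes were higher in the Ras lines, 2.96% of those tested, and 719 were lower, 3.61%. With no fold minimum 1693 rose (8.49%) and 1874 fell (9.4%), and with each array centred on its median the split was 2147 against 1471. The 8.49% and 9.4% are the background for each count of list members that rose or fell with all arrays. A count near them says nothing particular about its list. The fall reached further than the rise: 247 of the 2-fold genes were at least 4-fold lower and 48 at least 16-fold lower, against 121 and 16 higher. P-values are from limma with Benjamini-Hochberg adjustment over all genes, here and throughout, and "rose" or "fell" is used only at an adjusted p under 0.05. Values are log2 expression as deposited. The median over all genes and arrays was 6.47. Levels below it may be close to background, which was not measured, and fold sizes that involve them are less sure.

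**Figure D1:**
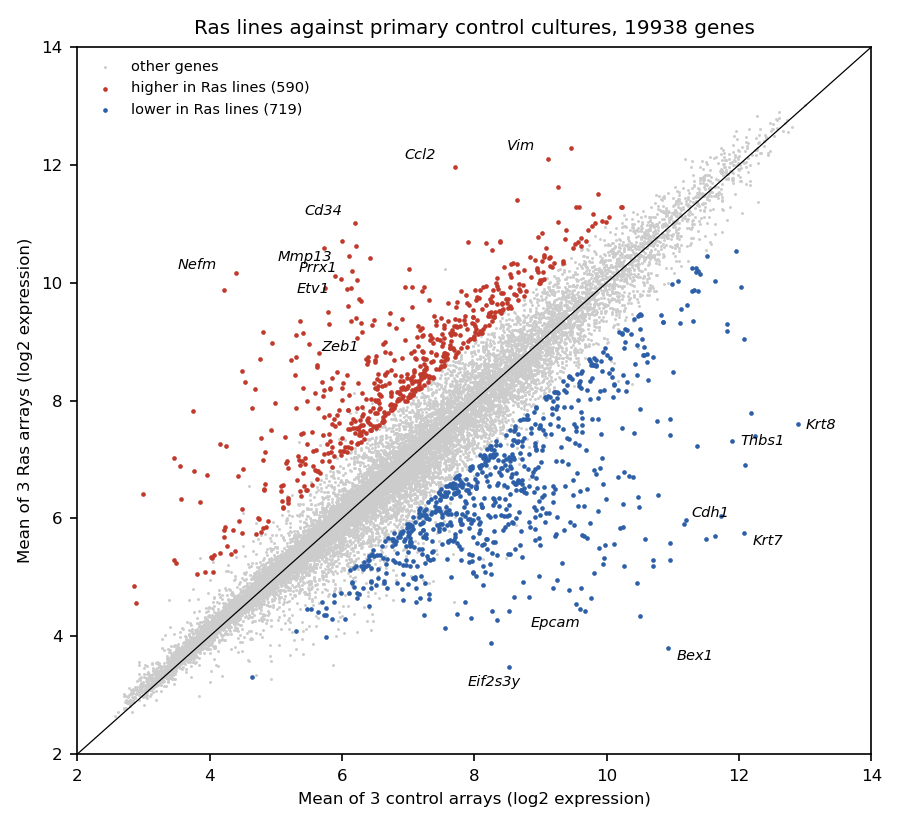
Mean log2 expression of each of 19938 genes in the 3 control arrays (horizontal axis) and the 3 Ras arrays (vertical axis), with genes higher in Ras in red and lower in blue at 2-fold and an adjusted p below 0.05. Krt7, Cdh1 and Epcam lie far below the line of equal level, and Nefm, Ccl2 and Mmp13 far above it.

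Control 3 stood apart from its group, and Ras 3 stood apart in its interferon genes. Over all genes Ras 3 was no further from Ras 1 than Ras 2 was, with 185 and 186 genes 2-fold apart. Ras 2 and 3 had 332. Control 3 had 685 genes at least 2-fold above the mean of controls 1 and 2 (3.44%) and 2 below it, while controls 1 and 2 differed 2-fold in 3 genes. Of 15 kidney tubule markers 13 were 2-fold higher in control 3, and their summed linear level was 14662 there, 883 to 938 in controls 1 and 2, and 885 to 1012 in the Ras arrays. Kap, for example, was at 12.10 in control 3 and at 4.78 to 5.01 on the other 5 arrays. Of 14 endothelial markers 5 were 2-fold higher in control 3 (summed level 1629, against 797 and 837 in controls 1 and 2 and 949 to 1225 in Ras). Ras 3 had 149 genes at least 2-fold above the mean of Ras 1 and 2 (0.747%), described with the interferon genes. With Ras 3 left out and no fold minimum, 1267 of the 19938 genes rose and 1533 fell. Without control 3 the comparison called 546 genes higher (2.74%) and 766 lower (3.84%), 1177 of them among the 1309 called with all arrays. With no fold minimum 8.38% of genes rose and 11% fell without it. When the 685 genes were dropped as well, 511 were higher and 729 lower. A "clean call" is a 2-fold call that held in the same direction without control 3, had no 2-fold deviation of control 3 from the other controls, no overlap between Ras and control arrays, and a higher group mean at or above 6.47. There were 1058 clean calls, 454 higher and 604 lower. As a background for lack of overlap, Ras and control arrays did not overlap in 18.9% of genes with Ras higher and in 17.5% with Ras lower. The 2-fold changes named below are clean calls, apart from those of Zeb2, Postn, Myl9, Etv1, Etv4, Il1a, Mmp3, Lamc1, Nefl, Cd34 and Cxcl2. For clean calls a lack of overlap follows from the definition, so where it is stated below it is a description and no further support.

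Genes of epithelial identity were among those that fell furthest. All 10 keratins on the basal and luminal marker lists fell, with a median log2 fold change of -4.62, against 0.02 over all genes. Other keratins were not part of this count. Keratins are the intermediate filaments of epithelial cells, and Krt7, a keratin of simple epithelia, was at 5.75, 5.76 and 5.77 in Ras 1, 2 and 3 and at 12.20, 12.13 and 11.91 in controls 1, 2 and 3. The 3 Ras arrays were almost equal and lay far below every control, a difference of 79.8-fold (log2 -6.32 ± 0.10 SE, adjusted p = 2.32e-06). Krt8, its luminal companion, was at 7.72, 7.73 and 7.32 in Ras and 12.92, 12.95 and 12.78 in control (log2 -5.29 ± 0.13, adjusted p = 5.82e-06). Krt18, the partner of Krt8, varied among the Ras arrays, at 9.83, 6.58 and 5.80 against 12.48, 12.37 and 11.90 in control. Ras 1 therefore kept more Krt18 than Ras 2 and 3, although all 3 were below control (log2 -4.84 ± 0.96, adjusted p = 0.0152).

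Basal epithelial markers fell in 14 of 18 measured members and rose in 0, with a median of -2.41. Krt14, a keratin of basal cells, was at 6.43, 5.67 and 6.02 in Ras and 11.85, 11.84 and 11.50 in control, 51.6-fold lower (log2 -5.69 ± 0.20, adjusted p = 1.6e-05). Its partner Krt5 was at 5.64, 5.66 and 5.47 in Ras and 11.09, 11.21 and 10.58 in control (log2 -5.37 ± 0.17, adjusted p = 1.16e-05). Neither keratin had overlapping groups. Dsg3, a desmosomal cadherin of stratified epithelium, fell by 5.11, and Krt17 and Krt15 fell by 4.39 and 4.37. Trp63, the transcription factor that maintains basal cells, was at 6.30, 6.25 and 6.04 in Ras and 7.95, 8.05 and 7.55 in control (log2 -1.65 ± 0.15, adjusted p = 0.000762). The basal members that did not pass were Itga6 (log2 0.26), Bcl11b (0.08), Jag2 (0.03) and Ngfr (-0.00).

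Luminal and secretory markers fell in 10 of 18 members and rose in 0. Tmprss2, an androgen-regulated membrane protease, was at 5.33, 5.45 and 5.67 in Ras and 8.51, 8.47 and 8.86 in control (log2 -3.13 ± 0.14, adjusted p = 4.1e-05). Psca, a prostate surface antigen, fell by 3.38, and Foxa1, a pioneer factor of luminal cells, fell by 1.57. Hoxb13, a homeobox factor of the prostate that was not a clean call, fell by 0.71. A secretory gene of the mature gland was low in both groups: Pbsn, the androgen-induced probasin, was at 2.99 to 3.12 in control and 3.08 to 3.18 in Ras. The control cultures thus carried basal and luminal keratins with probasin at a level no higher than in Ras. The list's median was -1.92 with all controls and -1.19 without control 3, where Spink1 stood at 11.88 against 4.82 and 4.98 in the other controls. In bulk RNA, fewer cells of a type and less RNA per cell cannot be told apart.

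Of 39 epithelial junction and identity genes 31 fell and 0 rose, with a median of -1.87. E-cadherin, Cdh1, which joins neighbouring epithelial cells, was at 5.88, 6.14 and 5.71 in Ras and 11.30, 11.33 and 10.86 in control, 38.1-fold lower (log2 -5.25 ± 0.17, adjusted p = 1.16e-05). Epcam, an epithelial adhesion protein, was at 4.46, 4.47 and 4.38 in Ras and 9.69, 9.78 and 9.53 in control (log2 -5.23 ± 0.10, adjusted p = 2.32e-06). For both genes the Ras arrays lay within 0.5 of each other and more than 4 below the lowest control. Of the 7 claudins on this list, which form tight junctions, 6 fell, led by Cldn1 at -5.55, Cldn7 at -4.31 and Cldn4 at -3.74. Cldn8 did not pass (-1.44) and stood at 8.03 in control 3 against 4.35 and 4.45 in the other controls. Desmosome genes fell in 6 of 7 members, among them the plaque protein Dsp, at 6.82, 6.79 and 8.65 in Ras and 11.16, 11.10 and 10.61 in control. Ras 3 thus kept more Dsp than Ras 1 and 2.

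Regulators that set epithelial splicing and transcription fell with the structural genes. Esrp1, an epithelial splicing factor, was at 4.86, 4.72 and 4.86 in Ras and 9.83, 9.80 and 9.21 in control, 27.8-fold lower (log2 -4.80 ± 0.17, adjusted p = 1.63e-05). The epithelial transcription factors Ehf and Grhl2 fell by 3.23 and 2.69, and the matriptase gene St14 fell by 3.83. Of the 8 that did not pass, those other than Cldn8 ranged from -0.65 for Ppl to -0.02 for Evpl and included the scaffold Tjp1 (-0.40).

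**Figure D2:**
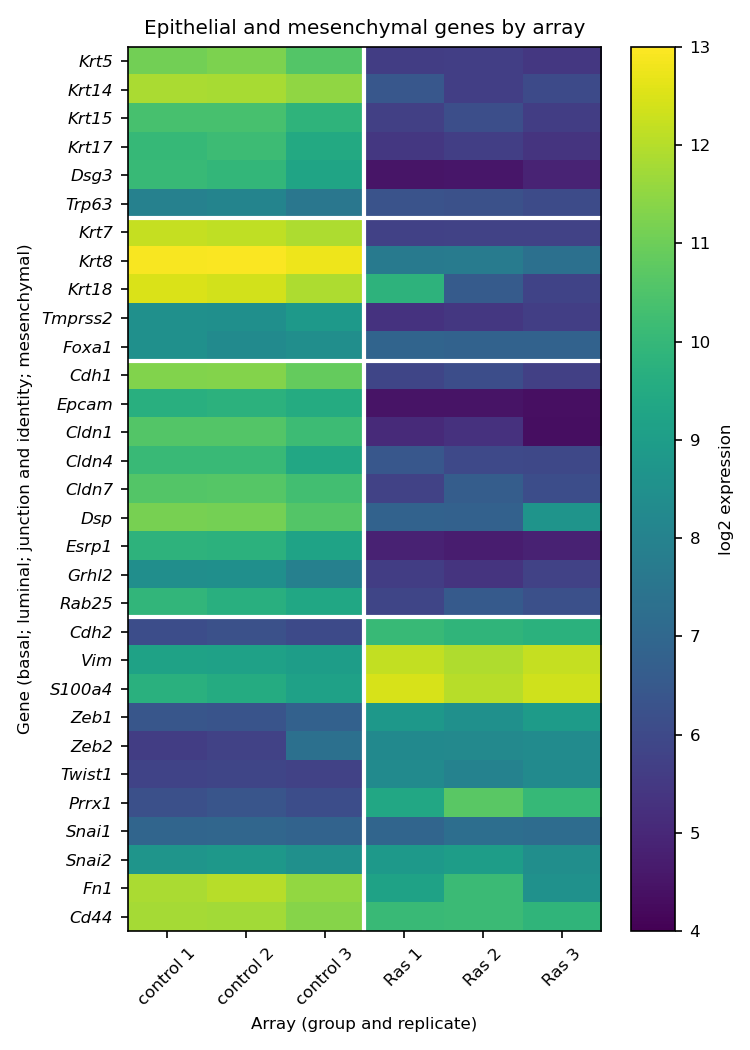
Log2 expression (colour) of basal, luminal, junction and mesenchymal genes (rows, separated by white lines) on each of the 3 control and 3 Ras arrays (columns). Keratins, Cdh1 and Epcam are high on every control and low on every Ras array, Cdh2, Vim and Prrx1 the reverse, and Krt18 on Ras 1, Dsp on Ras 3 and Zeb2 on control 3 stand apart from their groups.

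Mesenchymal genes did not move as 1 block. Of 21 measured members 8 rose and 3 fell, with a median of 0.26. Vimentin, Vim, an intermediate filament of mesenchymal cells, was at 12.19, 11.94 and 12.19 in Ras and 9.20, 9.16 and 8.99 in control, 7.93-fold higher (log2 2.99 ± 0.11, adjusted p = 1.69e-05). N-cadherin, Cdh2, was at 10.07, 9.90 and 9.75 in Ras and 6.14, 6.22 and 6.03 in control, 13.7-fold higher (log2 3.77 ± 0.11, adjusted p = 9.96e-06). Every Ras array lay above every control for both genes. S100a4, a calcium-binding protein of motile cells, rose by 2.82. In the other direction Fn1, the matrix protein fibronectin, was at 9.19, 10.14 and 8.55 in Ras and 11.85, 12.04 and 11.55 in control (log2 -2.52 ± 0.38, adjusted p = 0.0051). The hyaluronan receptor Cd44 fell by 1.60 and the ectonucleotidase Nt5e by 1.30. Fibronectin and Cd44 are usually counted as genes that mesenchymal transition raises, and here they fell.

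Among 8 transcription factors of that transition 5 rose and 0 fell, and 3 rose without Ras 3. Prrx1 was at 9.39, 10.71 and 10.04 in Ras and 6.20, 6.36 and 6.14 in control (log2 3.81 ± 0.31, adjusted p = 0.00043). Zeb1, a repressor of Cdh1, was at 8.81, 8.52 and 8.95 in Ras and 6.41, 6.32 and 6.79 in control (log2 2.25 ± 0.16, adjusted p = 0.000289), and Twist1 rose by 2.38. For these 3 genes all Ras arrays lay above all controls. Zeb2 was at 8.26, 8.25 and 8.36 in Ras but at 5.63, 5.78 and 7.32 in control, and was no clean call because control 3 lay above the others (log2 2.05 with all controls, 2.59 without control 3, adjusted p = 0.0178 and 2.2e-05). Without Ras 3 its adjusted p was 0.064. Twist2 rose by 0.57 and was not past the threshold without control 3 or without Ras 3 (adjusted p = 0.053 and 0.079). Snai1 was at 6.94 to 7.26 in Ras and 6.85 to 6.97 in control (log2 0.20 ± 0.11, adjusted p = 0.274), and Snai2 at 8.45 to 9.01 and 8.50 to 8.80 (0.10 ± 0.16, adjusted p = 0.748). Neither SNAI gene passed the test, and the levels of both overlapped between the groups.

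Markers of other mesenchymal cells are given beside these values. Of 15 fibroblast markers 3 rose (Col3a1, Fbln1 and Twist2, none by more than 0.71) and 1 fell (Postn, by 1.40). Their median log2 fold change was 0.09. Their summed linear level was 1232 to 1647 in Ras and 1069 to 1220 in control, higher on every Ras array, though Ras 3 lay close to control 3. Against the other oncogene lines 7 of the markers were above and 0 below, where 13.9% of all genes were above and 19.2% below. The collagen Col1a1 and the receptor Pdgfrb overlapped between the groups: Col1a1 was at 6.94 to 7.14 in Ras and 7.11 to 7.17 in control, and Pdgfrb at 5.67 to 6.38 and 5.67 to 5.84. Smooth muscle markers fell in 3 of 12 (Acta2 by 3.47, Tagln by 2.99 and Myl9 by 1.75) and rose in 0. Acta2, the actin of smooth muscle and myofibroblasts, was at 6.53, 7.49 and 6.09 in Ras and 10.12, 10.54 and 9.88 in control. The part of fibroblast or muscle cells in the Vim and Cdh2 values was not tested.

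A short motif was counted in the DNA upstream of the changed genes. It is CAGGTG, or CACCTG on the other strand, an E-box that ZEB factors are known to bind. It was searched on both strands in the 250 bases before the RefSeq start (build GRCm38.p6), which were at hand for 15614 of the genes tested. It occurred in 33.6% of 449 clean calls that fell with a promoter, 11.9% of 336 that rose and 19.3% of the tested genes. Of 16 fallen junction genes with a promoter, 8 held it: Epcam, Cldn4, Cldn6, Cldn7, Ocln, F11r, Elf3 and Rab25. The 4 promoters below, of the junction gene Epcam, the keratins Krt7 and Krt8, and Rab25, a small GTPase of epithelial vesicle traffic that fell by 3.46, show its place, with the motif in capitals.
Epcam, chr17:87635729-87635978, plus strand: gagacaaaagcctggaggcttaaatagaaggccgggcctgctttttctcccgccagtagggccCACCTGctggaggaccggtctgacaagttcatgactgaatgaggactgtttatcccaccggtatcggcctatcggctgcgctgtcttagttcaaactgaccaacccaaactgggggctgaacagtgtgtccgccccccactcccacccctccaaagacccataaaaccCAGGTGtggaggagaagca
Krt7, chr15:101412153-101412402, plus strand: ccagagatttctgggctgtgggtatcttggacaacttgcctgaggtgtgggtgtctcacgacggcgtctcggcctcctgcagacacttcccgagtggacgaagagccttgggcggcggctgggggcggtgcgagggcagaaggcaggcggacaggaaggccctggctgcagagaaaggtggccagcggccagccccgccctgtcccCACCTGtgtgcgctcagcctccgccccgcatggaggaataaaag
Krt8, chr15:102004343-102004592, minus strand: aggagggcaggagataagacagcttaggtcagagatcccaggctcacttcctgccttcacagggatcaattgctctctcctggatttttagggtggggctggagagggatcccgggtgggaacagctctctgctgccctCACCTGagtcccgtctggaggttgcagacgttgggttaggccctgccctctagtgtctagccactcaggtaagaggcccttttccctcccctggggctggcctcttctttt
Rab25, chr3:88548280-88548529, minus strand: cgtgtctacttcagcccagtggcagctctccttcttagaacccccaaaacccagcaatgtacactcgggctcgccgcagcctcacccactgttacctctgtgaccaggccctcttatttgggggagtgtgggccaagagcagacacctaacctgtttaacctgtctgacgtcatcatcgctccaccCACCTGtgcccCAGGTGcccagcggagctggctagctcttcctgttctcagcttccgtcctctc
Epcam carried it 187 and 19 bases before the start, Krt7 44, Krt8 111 and Rab25 64 and 53. The shares are a description of these letters and were not tested. A match is not a bound site.

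The miR-200 family is the known counterpart of ZEB1 and ZEB2, whose messages it targets, and marks epithelial cells. It has 2 seeds (bases 2 to 8, in capitals), 1 shared by miR-200b, miR-200c and miR-429 and 1 by miR-200a and miR-141, as the mature RefSeq sequences show.
mmu-miR-200b-3p: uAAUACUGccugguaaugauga
mmu-miR-200c-3p: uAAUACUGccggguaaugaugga
mmu-miR-429-3p: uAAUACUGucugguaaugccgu
mmu-miR-200a-3p: uAACACUGucugguaacgaugu
mmu-miR-141-3p: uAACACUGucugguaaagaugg
The array reads their genes, not the mature forms. Mir200a was at 5.96, 5.98 and 5.82 in Ras and 6.40, 6.33 and 6.12 in control, with every Ras array below every control and no pass of the test (log2 -0.37 ± 0.11, adjusted p = 0.0599). Mir200b, Mir200c and Mir141 differed by -0.11, -0.12 and -0.10 (adjusted p = 0.629, 0.591 and 0.595). All 4 lay below 6.47, and the gene of miR-429 was not analysed here. These genes were picked after the values were seen.

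Within the RAS pathway most genes did not pass the test, and all 5 that rose were GTPase-activating proteins. Hras had no probe set of its own and was not analysed here, so the labels could not be checked on the transduced gene. Of 38 measured RAS proteins, regulators and effectors 5 rose and 4 fell, shares of the same order as over all genes. Exchange factors (0 of 8) and the RAF, KSR and MEK kinases (0 of 5) held no member past the threshold. GTPase-activating proteins, which switch RAS off, rose in 5 of 8: Rasa3 by 1.41, Rasa1 by 0.71, Rasal2 by 0.69, Nf1 by 0.53 and Rasa2 by 0.40. Rasa3 was at 7.86, 7.68 and 7.92 in Ras and 6.66, 6.45 and 6.14 in control (± 0.15 SE, adjusted p = 0.00133). It was the only clean call among them, and its level in the Myc, NeuT and Src lines, at means of 7.74, 8.22 and 7.92, did not differ from Ras at the threshold (adjusted p = 0.23). Nf1 passed narrowly (adjusted p = 0.0477) and lost its pass when any 1 of the 6 arrays was left out, with an adjusted p of 0.086 without control 3. Rasa2 lost its pass without control 1, control 2 or Ras 1. The 4 that fell were Pik3cb, a PI3-kinase catalytic subunit, by 1.16, the RAS relative Rras by 0.99, the small GTPase Ralb by 0.93 and the phospholipase Plce1 by 0.74. Without control 3, 8 members fell, and 3 rose without control 1, control 2 or Ras 1.

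Of 18 ERK feedback genes 7 rose and 5 fell. Sprouty and Spred genes, inhibitors that act on the relay upstream of ERK, rose in 5 of 7 and fell in 1. Spred1 was at 10.06, 10.23 and 10.01 in Ras and 8.60, 8.54 and 8.52 in control (log2 1.55 ± 0.09, adjusted p = 0.000127), with wide space between the groups. Spry2 was at 8.26, 8.54 and 8.25 against 7.12, 6.83 and 7.19 (1.30 ± 0.13, adjusted p = 0.0012). Spred2, Spry3 and Spry4, which stayed under 2-fold, rose by 0.95, 0.89 and 0.88, and Spry1 fell by 0.56. Dual-specificity phosphatases, which remove phosphate from MAP kinases, rose in 2 of 11 and fell in 4, with a median of 0.01 (1 rose and 3 fell without Ras 3). Dusp4 rose by 1.13, whereas Dusp10, which acts on the stress kinases p38 and JNK, was at 7.63, 7.62 and 7.81 in Ras and 9.90, 9.96 and 9.47 in control (log2 -2.09 ± 0.15, adjusted p = 0.000258). The classical ERK phosphatase Dusp6 was at 7.93, 7.98 and 8.25 in Ras and 7.65, 7.79 and 7.67 in control, without overlap and without passing (log2 0.35 ± 0.11, adjusted p = 0.0779).

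Transcription factors downstream of ERK moved both ways, 5 of 24 up and 7 down. The PEA3 group of ETS factors, a known output of this pathway, rose in 3 of 3, and in 2 of 3 without Ras 3. Etv1 was at 9.74, 9.73 and 10.21 in Ras and 5.68, 5.28 and 7.27 in control, so that its size depended on control 3 (log2 3.82 with all controls, 4.42 without control 3, adjusted p = 0.0027 and 3.5e-05). Etv4 and Etv5 rose by 1.09 and 1.01, and Etv5 was the one lost without Ras 3 (adjusted p = 0.085). Fosl1, the FOS relative that ERK stabilises, rose by 1.62 (± 0.13, adjusted p = 0.000475) with Ras arrays at 8.11 to 8.44 and controls at 6.49 to 6.85. It was not particular to Ras: its means were 8.21, 9.07 and 8.31 in the Myc, NeuT and Src lines. Ras differed from these lines by a log2 change of -0.26 (adjusted p = 0.0324). Jun, Junb and Fosl2 fell by 0.55, 0.44 and 0.62, and Ets2 by 1.93. Of the 7 FOS and JUN genes 3 fell with all arrays, and 1 fell without Ras 3 or with median centring. Fos and Egr1, the immediate-early genes, differed by -0.11 and 0.15 and did not pass. Over the list 3 members rose and 3 fell without control 1 or control 2, 4 fell without Ras 1, and 3 rose without Ras 3.

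Of 34 growth factor receptors and ligands 11 fell and 5 rose. The list's median was -0.25 with all arrays and -0.04 without control 3. Egfr, the EGF receptor, was at 6.30, 6.86 and 6.25 in Ras and 9.72, 9.82 and 9.24 in control, 8.69-fold lower (log2 -3.12 ± 0.22, adjusted p = 0.000238). The EGF-family receptor Erbb3 fell by 1.91, the epithelial FGF receptor Fgfr2 by 2.12 and, as no clean call, Erbb2 by 0.41. Fgfr1, the mesenchymal FGF receptor, was the 1 of 14 receptors that rose, by 0.76. Of 20 ligands 4 rose and 6 fell, with a median of 0.03. Fgf7, a keratinocyte growth factor that stroma usually makes, was at 8.83, 9.70 and 9.41 in Ras and 6.26, 6.26 and 6.33 in control (log2 3.03 ± 0.21, adjusted p = 0.000253). Ereg, an EGF receptor ligand, rose by 1.78, Vegfc by 1.67 and Kitl by 1.43. Tgfa and Hbegf, further ligands of that receptor, differed by 0.23 and 0.54 and did not pass (adjusted p = 0.142 and 0.0505). The groups did not overlap for Egfr, Fgf7 or Ereg.

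**Figure D3:**
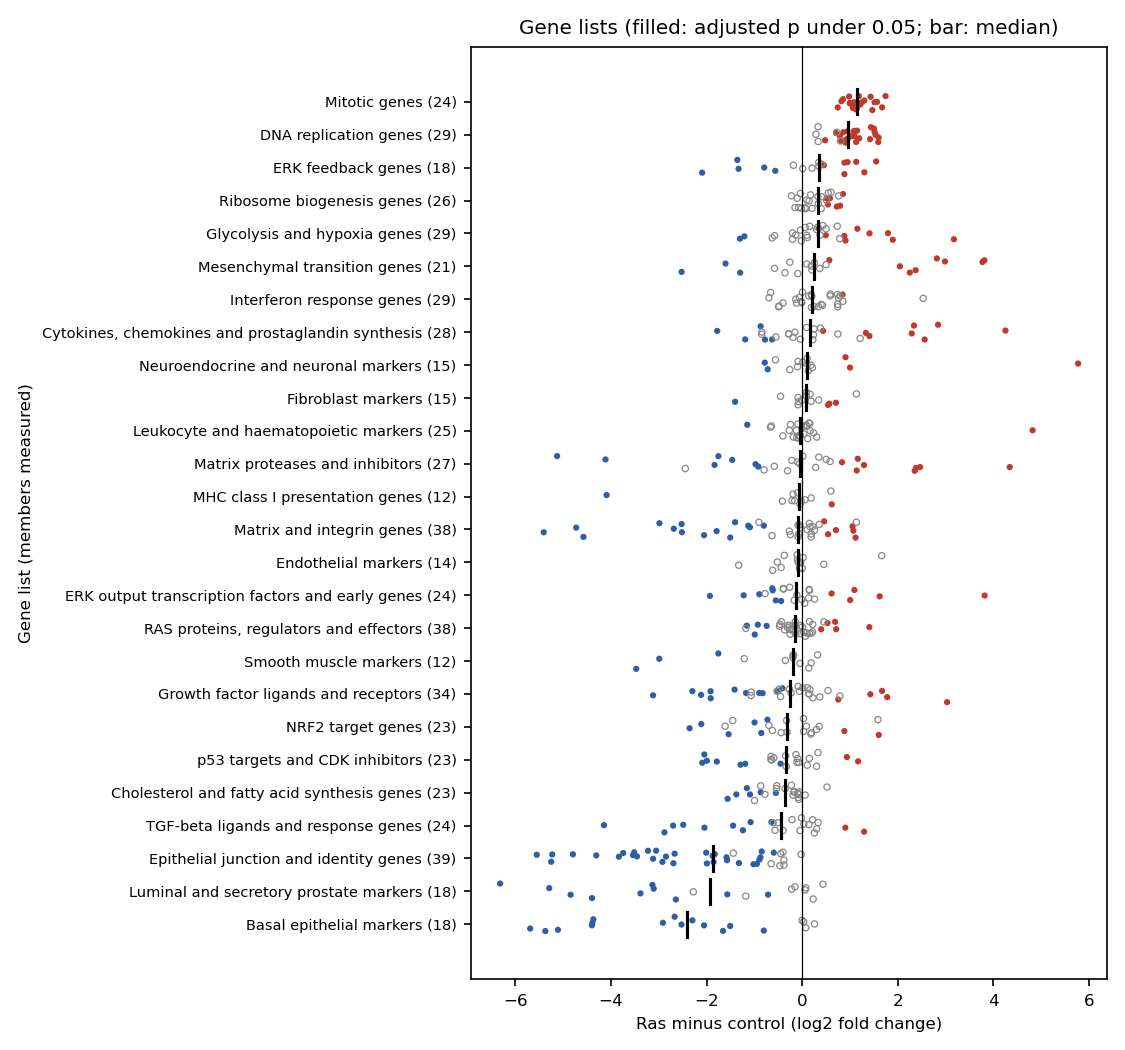
Log2 fold change of Ras against control (horizontal axis) for each member of the gene lists (rows, members measured in brackets), filled red or blue at an adjusted p under 0.05, open otherwise, with a bar at each median. Kidney and Y-linked lists are not drawn. The mitotic list lies wholly to the right, and the junction, luminal and basal lists have medians of -1.87, -1.92 and -2.41.

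Secreted signals and proteases rose in a few members by large amounts. Of 12 listed chemokines 6 rose and 1 fell. Ccl2, which draws monocytes, was at 12.07, 11.72 and 12.10 in Ras and 7.84, 7.77 and 7.51 in control, 19.1-fold higher (log2 4.25 ± 0.14, adjusted p = 1.21e-05). Ccl20 rose by 2.84, its relative Ccl7 by 2.34 and the neutrophil attractant Cxcl1 by 2.29, and the epithelial cytokine Tslp by 2.56. Ccl7 was at 8.74, 8.09 and 9.37 in Ras, with the highest value on Ras 3, and at 6.34 to 6.44 in control. Of all 28 cytokine and prostaglandin genes 8 rose and 5 fell, and 2 fell without control 1 or control 2. Il1a fell by 1.19 at levels under 6.47, and Ptgs2 did not pass (-0.28).

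Of 12 listed metalloproteinases, which cut matrix, 4 rose and 2 fell. Mmp13, a collagenase, was at 10.71, 9.79 and 10.83 in Ras and 5.95, 6.65 and 5.71 in control, 20.3-fold higher (log2 4.34 ± 0.34, adjusted p = 0.000399). Mmp10, a stromelysin, was at 10.26, 9.83 and 9.03 against 7.41, 7.46 and 7.10 (2.38 ± 0.30, adjusted p = 0.00254), and Mmp19 rose by 1.16. Mmp3 was at 9.94, 10.29 and 7.91 against 6.92, 7.54 and 6.28, with Ras 3 close to the highest control, and did not pass without control 3 (adjusted p = 0.0406 and 0.076). Over the 27 proteases and inhibitors 8 rose and 7 fell, 11 without control 3. The protease inhibitors diverged: Serpinb2 rose by 2.36 and Timp1 by 1.14, while Serpinb5, the epithelial serpin maspin, was at 4.34, 4.48 and 4.58 in Ras and 9.78, 9.85 and 9.15 in control (log2 -5.13 ± 0.19, adjusted p = 1.91e-05). Timp3 fell by 4.11.

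The upstream sequences of the metalloproteinases that led this list carried the letters of the AP-1 motif near those of the TATA motif. AP-1 (TGANTCA, searched on both strands, on which it reads alike) is the motif bound by FOS and JUN dimers. The TATA letters (TATAAA) were also searched on both strands. Of the 8 proteases and inhibitors that rose, 6 had a promoter at hand and 5 held the AP-1 letters (Mmp3, Mmp10, Mmp13, Serpinb2 and Adam19), against 7.12% of the tested genes, 11.3% of clean calls that rose and 10.7% of those that fell. The TATA letters were in 4 of those 6 (Mmp3, Mmp10, Mmp13 and Serpinb2), 12.5% of the tested genes and 13.1% of clean calls that rose. Capitals mark both motifs in the 3 promoters (GRCm38.p6), which lie in 1 gene cluster on chromosome 9.
Mmp13, chr9:7272264-7272513, plus strand: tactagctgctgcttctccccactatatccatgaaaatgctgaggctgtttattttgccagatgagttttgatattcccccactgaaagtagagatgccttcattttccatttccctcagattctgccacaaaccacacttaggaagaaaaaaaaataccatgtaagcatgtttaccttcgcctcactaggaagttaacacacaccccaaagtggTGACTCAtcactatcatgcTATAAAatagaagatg
Mmp3, chr9:7445572-7445821, plus strand: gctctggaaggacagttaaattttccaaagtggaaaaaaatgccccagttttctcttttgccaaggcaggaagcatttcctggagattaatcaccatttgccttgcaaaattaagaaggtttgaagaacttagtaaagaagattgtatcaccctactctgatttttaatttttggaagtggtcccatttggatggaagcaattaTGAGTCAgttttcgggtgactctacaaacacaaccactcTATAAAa
Mmp10, chr9:7502092-7502341, plus strand: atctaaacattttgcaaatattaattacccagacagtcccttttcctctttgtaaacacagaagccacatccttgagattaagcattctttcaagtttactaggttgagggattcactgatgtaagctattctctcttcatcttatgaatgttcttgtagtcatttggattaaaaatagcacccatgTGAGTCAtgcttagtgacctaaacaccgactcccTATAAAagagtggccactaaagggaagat
The AP-1 letters began 35, 46 and 63 bases before the start of Mmp13, Mmp3 and Mmp10, and the TATA letters 16, 7 and 29 bases before it. These genes were picked after their values were seen, and the shares were not tested. Matching letters are not evidence of a working AP-1 site or TATA box.

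Matrix and adhesion genes fell more often than they rose, 14 against 6 of 38. Thbs1, the adhesive matrix protein thrombospondin 1, was at 7.73, 7.40 and 6.82 in Ras and 12.05, 12.06 and 11.56 in control, 23.8-fold lower (log2 -4.57 ± 0.25, adjusted p = 0.0001). Itgb6, an integrin subunit of epithelia that activates TGF-beta, fell by 4.73, the matrix glycoprotein Tnc by 2.99 and the epithelial laminin chain Lama3 by 2.68. Itga5, the fibronectin receptor subunit, was the 1 of 11 listed integrins that rose, a share near the 8.49% of all genes. It was at 8.34, 8.22 and 7.99 in Ras and 7.09, 7.24 and 6.86 in control (log2 1.12 ± 0.14, adjusted p = 0.00237). The basal lamina chain Lamc1 rose by 1.06. TGF-beta ligands and response genes fell in 9 of 24, against 9.4% of all genes, and rose in 2, near the 8.49% of all genes. Inhba, an activin subunit, was at 7.31, 8.21 and 6.16 in Ras against a control mean of 11.37 ± 0.32 (SD, n = 3; log2 -4.15 ± 0.49, adjusted p = 0.00196), spread over 2 log2 units among the Ras arrays. Tgfb2 fell by 2.88 and Pmepa1 by 2.70, Ccn2 fell by 2.49 and the signal carrier Smad3 by 1.44, whereas the ligand Tgfb1 rose by 0.90, under 2-fold.

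Genes of cell division rose as a whole list. All 24 mitotic genes rose, with a median of 1.14, and 24 of 29 DNA replication genes rose with a median of 0.96. The list medians without control 3 were 0.99 and 0.82. Bub1, a spindle checkpoint kinase, was at 10.15, 10.59 and 10.25 in Ras and 8.71, 8.87 and 8.17 in control (log2 1.75 ± 0.21, adjusted p = 0.00202). Cdc45, a helicase cofactor at replication origins, was at 8.81, 9.22 and 9.09 against 7.56, 7.58 and 7.19 (1.60 ± 0.15, adjusted p = 0.000983). Neither gene overlapped between groups. Mki67, the usual proliferation marker, rose by 1.23. Of 6 MCM subunits of the replicative helicase 5 rose, and Mcm7 did not pass (0.80, adjusted p = 0.0574). Control 3 was the lowest array for each of Bub1, Cdc45, Mki67 and Mcm7. Without Ras 3, 21 mitotic and 17 replication genes rose.

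Fewer of these genes were higher in Ras when the other oncogene lines took the place of the controls. Against the mean of the Myc, NeuT and Src lines, 7 of 24 mitotic genes were higher in Ras and 2 lower (13.9% and 19.2% of all genes rose and fell in that comparison), and 3 of 29 replication genes were higher and 11 lower. Cdk1, for example, averaged 10.90 ± 0.10 (SD, n = 3) in Ras and was at means of 10.77, 11.12 and 10.74 in the Myc, NeuT and Src lines. Ribosome biogenesis genes rose in 6 of 26 against control, 2 without Ras 2 or Ras 3, and 21 of the 26 were below the other lines. Cell cycle inhibitors and p53 targets fell in 7 of 23 and rose in 2 (1 without control 1, control 2 or Ras 2). Btg2 and the death gene Pmaip1, both p53 targets, fell by 1.78 and 2.05, the cyclin Ccnd2 by 1.29, and the CDK4 and CDK6 inhibitor Cdkn2c rose by 1.17. Cdkn2a, the locus of p16 and p19ARF, was at 5.69 to 6.60 in Ras and 5.95 to 5.96 in control and did not pass (adjusted p = 0.804).

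Metabolic genes changed in smaller numbers. Of 29 glycolysis and hypoxia genes 9 rose and 2 fell (5 fell without control 3 and Ras 3, 1 without control 1, control 2 or Ras 1). Egln3, an oxygen-sensing hydroxylase, was at 9.52, 8.97 and 9.70 in Ras against a control mean of 6.22 ± 0.21 (SD, n = 3; log2 3.18 ± 0.21, adjusted p = 0.000185). Pfkp, a phosphofructokinase, rose by 1.90, the collagen hydroxylase P4ha1 by 1.80 and the lactate carrier Slc16a1 by 1.41, whereas Pfkfb3 fell by 1.21. The glucose carrier Slc2a1 and Ldha did not pass (0.73 and 0.33). NRF2 targets fell in 6 of 23 and rose in 2, with the glutathione transferase Gsta4 lower by a log2 change of -2.11 and Ugdh higher by 1.60. The share that rose was near the 8.49% of all genes, and 9.4% of all genes fell. Cholesterol and fatty acid synthesis genes fell in 6 of 23 and rose in 0. Hmgcs1, an early enzyme of the pathway, was at 8.16, 8.01 and 9.25 in Ras and 10.08, 10.07 and 9.94 in control (log2 -1.56 ± 0.31, adjusted p = 0.0153). Ras 3 lay between the other Ras arrays and control. The count depended on single arrays: 15 fell without control 3 and Ras 3, and 2 without control 1, control 2 or Ras 1. Against the other oncogene lines 19 of 23 were lower in Ras.

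The interferon genes separated Ras 3 from its own group. Of 29 interferon response genes 23 were at least 2-fold above Ras 1 and 2 on Ras 3, and the summed linear level was 3372, 2728 and 15042 in Ras 1, 2 and 3 and 4042 to 4399 in control. Rtp4, an interferon-induced gene, was at 5.62, 5.37 and 10.95 in Ras and 6.83, 7.17 and 7.20 in control. Oasl2 was at 5.89, 6.23 and 9.73 against 7.29, 7.63 and 7.34. Ras 1 and 2 thus lay below the controls and Ras 3 above them. With all arrays 1 of the 29 rose (Ifit2, by 0.83) and 0 fell by limma, and 3 rose without Ras 2. Without Ras 3, 1 of the 29 rose and 8 fell, where 1267 and 1533 of all 19938 genes rose and fell. Rtp4 then fell by 1.57 and Oasl2 by 1.36 (adjusted p = 0.00424 and 0.00706). Of the 29 genes 12 fell when control 3 was left out as well. The MHC class I list, which interferon also raises, had 1 of 12 up (B2m, by 0.62) and 1 down (Ubd, by 4.09) with all arrays. On Ras 3, 4 of the 12 were 2-fold higher than on Ras 1 and 2, and without Ras 3, 3 fell.

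**Figure D4:**
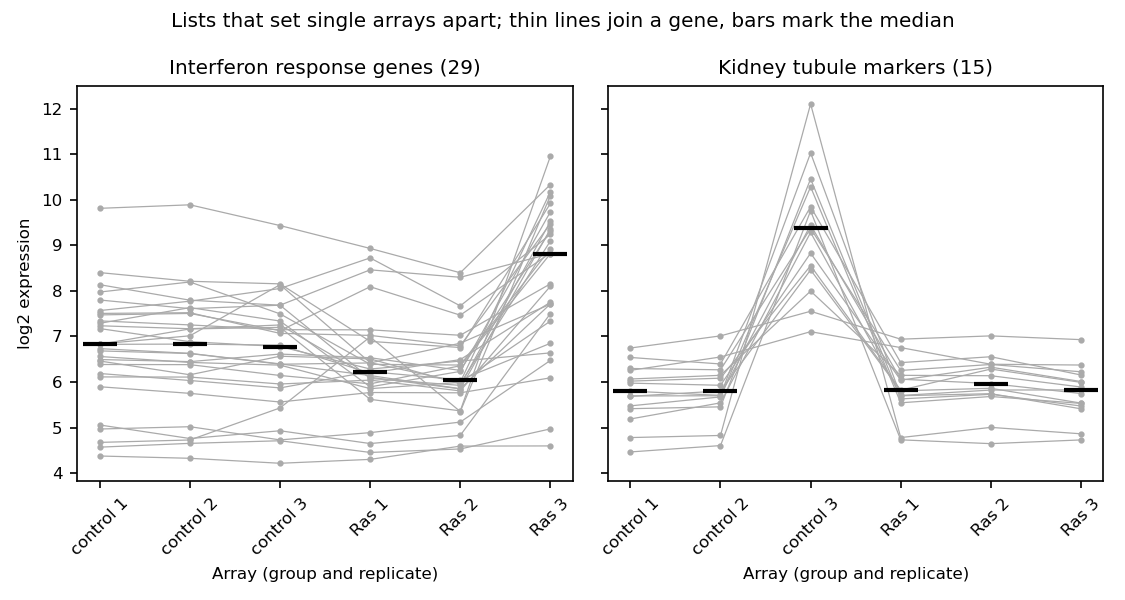
Log2 expression of 29 interferon response genes (left) and 15 kidney tubule markers (right) on the 3 control and 3 Ras arrays, with a line for each gene and a bar at each array's median. The interferon list is raised on Ras 3 and the kidney list on control 3 alone.

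The highest single genes came from varied families. Nefm, the medium neurofilament chain of neurons, was at 9.55, 10.99 and 9.98 in Ras and 4.47, 4.24 and 4.48 in control, 54.8-fold higher (log2 5.77 ± 0.34, adjusted p = 0.000129). Of 15 neuroendocrine and neuronal markers 3 rose and 2 fell (0 fell without control 1, 1 without Ras 1 or Ras 3), the others that rose being the light neurofilament chain Nefl, by 1.00, and Eno2, by 0.91. Syp and Chga, defining markers of neuroendocrine cells, differed by 0.22 and -0.08 and did not pass. Lipn, a lipase, was at 10.50, 9.09 and 10.06 against 4.22, 4.10 and 4.32 (5.67 ± 0.33, adjusted p = 0.000127). C3ar1, the receptor for the complement fragment C3a, was at 10.82, 10.49 and 10.82 against 5.75, 5.87 and 6.38 (4.71 ± 0.19, adjusted p = 2.31e-05). Each gene had all Ras arrays more than 4 log2 units above every control. Mcpt8, a protease of basophils, rose by 4.22, and the kinase subunits Prkg2 and Prkar2b, which answer to cGMP and cAMP, by 4.41 and 4.05. Prl2c5 rose by 4.86, and P2ry10b by 4.06, both from families of close copies whose probes may read each other.

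Cd34, a surface protein of blood stem cells and endothelium, was at 10.74, 11.20 and 11.09 in Ras and 5.76, 5.84 and 6.97 in control (log2 4.82 ± 0.33, adjusted p = 0.000214), and was no clean call because control 3 was raised. Of 25 leukocyte and haematopoietic markers it was the 1 that rose (2 rose without control 3 or without Ras 3), and 1 fell (Runx1, by 1.15). The pan-leukocyte gene Ptprc averaged 4.83 ± 0.18 (SD, n = 3) in Ras and 4.96 ± 0.22 in control, both low. The list's summed level was 3246 to 3812 in Ras and 1767 to 1884 in control. Without Cd34 the order turned, at 1453 to 1562 in Ras and 1709 to 1784 in control. Endothelial markers rose in 0 and fell in 0 of 14 by limma, and rose in 3 without control 3; Cdh5 was at 6.20 to 6.28 in Ras and 5.81, 5.84 and 7.33 in control. The part of the marker lists in these results was not tested.

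Bex1, an X-linked gene of neurons and progenitors, had the deepest fall, at 3.76, 3.67 and 3.98 in Ras and 10.91, 11.13 and 10.75 in control (139.9-fold, log2 -7.13 ± 0.13, adjusted p = 2.32e-06). The secreted chaperone Clu fell by 5.93, the polarised transport protein Mal2 by 5.84, S100a14 by 5.67, the interleukin receptor Il18r1 by 5.51 and the matrix protein Efemp1 by 5.41. All 3 measured Y-linked genes fell. Eif2s3y was at 3.41, 3.40 and 3.61 in Ras and 8.70, 8.77 and 8.11 in control (log2 -5.06 ± 0.18, adjusted p = 1.63e-05), and Uty and Kdm5d fell by 3.37 and 2.60. The NeuT and Src lines had Eif2s3y at means of 3.37 and 3.62 and the Myc lines at 6.96.

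A direct test against the other oncogene lines, which shared the serum medium, called 540 genes higher in Ras (2.71%) and 452 lower (2.27%) with the 2-fold minimum. Of the 454 clean calls that rose against control 234 were also above the other lines by this test, and of the 604 that fell 289 were also below. None of the former were below them, and 2 of the latter, Adgrg6 and Nupr1, were above. Both tests use the same Ras arrays, which favours calls in the same direction, so these counts are a description. Epithelial genes were among those lower: 34 of 39 junction genes and 15 of 18 basal markers were lower in Ras at an adjusted p under 0.05, where 19.2% of all genes fell. Krt7 averaged 11.89, 12.14 and 11.85 in the Myc, NeuT and Src lines, close to the controls, and was lower in Ras by a log2 change of -6.20 (± 0.06, adjusted p = 3.4e-16). Epcam averaged 9.83, 9.38 and 9.11 there, also far above its Ras mean of 4.44 ± 0.05 (SD, n = 3; adjusted p = 1.5e-15). Prrx1 averaged 5.66, 5.66 and 5.73 in these lines and was 4.36 higher in Ras (adjusted p = 5.5e-10), and Zeb1 was 2.72 higher (adjusted p = 2.9e-11). Of 21 mesenchymal genes 14 were above the other lines and 5 below. Some were also raised against control in other lines. Twist1 averaged 7.66 in NeuT and 7.32 in Src, against 8.20 in Ras and 5.82 in control. Vim and Cdh2 averaged 10.79 and 8.04 in NeuT, 9.12 and 6.13 in control, and 7.55 and 5.81 in Myc.

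Other genes that changed against control had like means in all line groups. Prl2c5 averaged 10.31, 10.10 and 10.92 in the Myc, NeuT and Src lines, with no difference from Ras at the threshold (log2 0.15 ± 0.20, adjusted p = 0.62). Efemp1 averaged 5.03, 4.91 and 5.13 in those lines, as low as in Ras (0.27 ± 0.21, adjusted p = 0.35), and Tmprss2 likewise (-0.13, adjusted p = 0.3). These genes separated control from every line group. Mixed patterns also occurred: Bex1 averaged 4.11 and 4.43 in the Myc and Src lines and 10.67 in NeuT, and Mmp13 averaged 10.32 in Src and 5.88 and 5.55 in Myc and NeuT. Basal keratins differed among the other lines as well, with Krt5 at 12.19 in Src, 9.23 in Myc and 5.70 in NeuT, the last close to Ras. Il1a, an inflammatory cytokine, averaged 11.21, 10.84 and 11.37 in the Myc, NeuT and Src lines and was lower in Ras by a log2 change of -6.45 (adjusted p = 9.9e-14), while the controls lay at 5.46 to 6.37. The neutrophil attractant Cxcl2, which rose against control, was lower in Ras than in the other lines by 0.81 (adjusted p = 0.01).

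**Figure D5:**
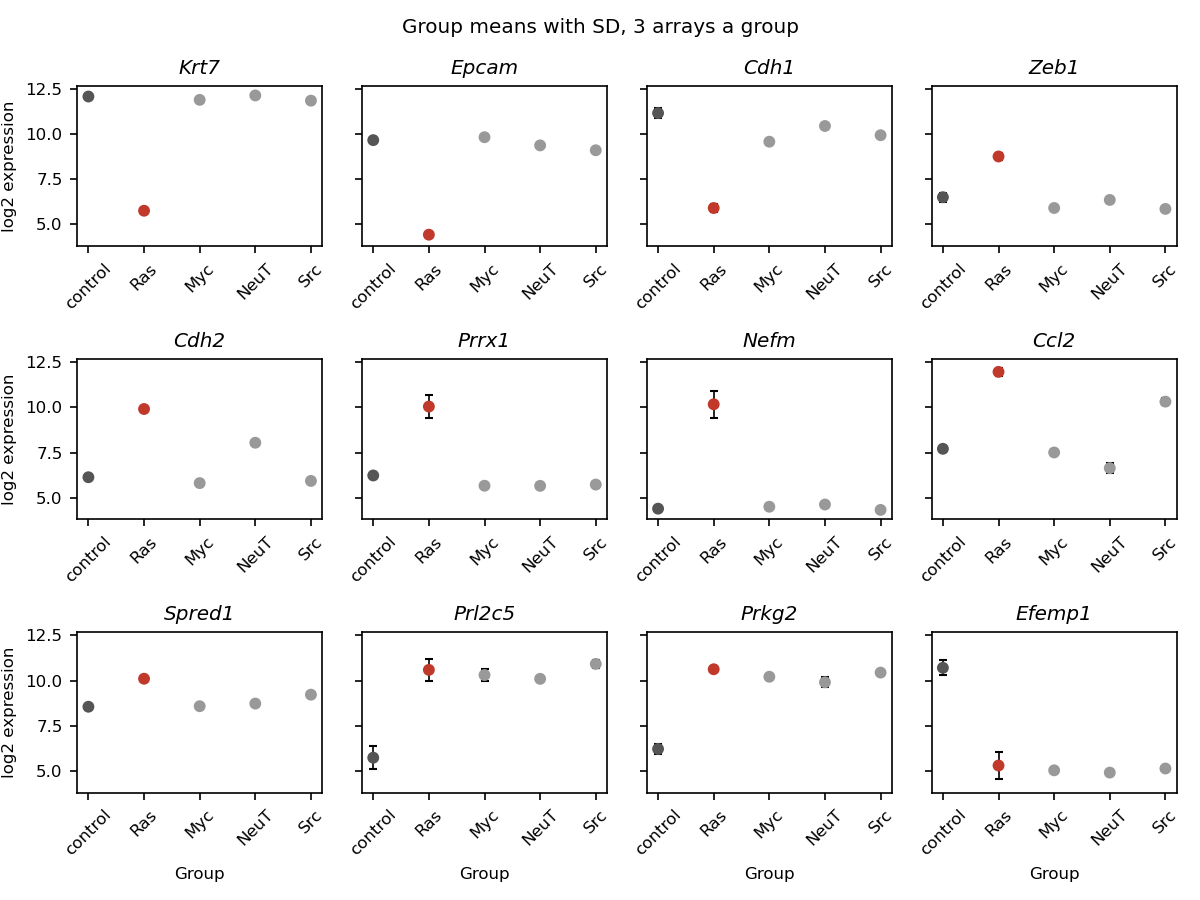
Group means of log2 expression with SD over 3 arrays (vertical axes) in the control, Ras, Myc, NeuT and Src groups for 12 genes. Krt7, Epcam and Cdh1 are low in Ras alone, Zeb1, Cdh2, Prrx1 and Nefm are highest in Ras, and Prl2c5, Prkg2 and Efemp1 set control apart from all line groups.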

How the data were processed

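Per the labels' protocols, Trizol was used to extract total RNA of the ventral prostate cells and WT-Ovation Pico to amplify it. The deposited values are log2 expression, normalized by the authors across arrays. The submitters' processing notes name RMA and Expression Console 1.1 (Affymetrix), without saying what each did. Array medians ran from 6.19 to 6.32. The sources used here do not give the build, background setting or summary level. Of 35556 probe sets 21789 named 1 gene, 1621 several and 12146 none. For 999 genes with several probe sets the one with the highest mean was used, which left 19938 genes and no filter on low values. Entrez identifiers matched 21698 probe sets to RefSeq, and 0 symbols changed.

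Models were fitted with limma 3.58.1 (lmFit and eBayes, two-sided, Benjamini-Hochberg over all genes) in R 4.3.3, Ras against control on the 6 arrays of these groups and Ras against the mean of the other oncogene groups on their 12 arrays. A fit of all 15 arrays, in which the tighter other groups lower the shared spread, was an alternative. The 3 arrays a group limit precision. Ras pairs correlated at r from 0.980 to 0.987 and the other lines had 3 to 31 genes 2-fold apart in a pair, against 185 to 332 in Ras. Tested on simulated data over 19938 genes, the fit of Ras against control found 77% of 2-fold and 96% of 4-fold changes, and that against the other lines 98% and 100%. Of the simulated calls, made without a fold minimum, 3.89% and 3.88% were false. The simulation changed 100 genes by each fold, drew noise independently for each gene and array, and held no array that stood apart. These shares are therefore not the false rate of the real calls. Tables were handled with pandas 2.3.3 and numpy 2.4.6 in Python 3.11.15, and figures drawn with matplotlib 3.10.9.

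The genes compared, the 28 lists and the rule for named genes were chosen with earlier results of these data known. The rule took the 12 highest and 12 lowest clean calls (predicted genes passed over), the 6 highest and 6 lowest that also differed from the other lines, up to 5 members of each list by smallest p, RAS list members past the threshold, Y-linked genes, and genes of the arrays that stand apart. Further list members, the groups by role, the promoters and the miRNA genes were picked after their values were seen. A group by role, such as keratins or claudins, holds members of these lists and not every gene of its family. Replicate numbers were not used to pair the arrays. Deviations of same-numbered Ras and control arrays from their group means correlated at -0.035, 0.031 and 0.007. Control 3, and Ras 3 in its interferon genes, stand apart and weigh on these deviations, so the values cannot exclude a shared preparation. Alternatives were median centring, quantile normalization, a filter on dim genes, the mean of probe sets, a trended robust variance, array weights, a replicate block, all 15 arrays, no fold minimum, leaving out each array, and dropping genes raised in control 3.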

Additional observations from a re-analysis of the deposited data

Results flagged for a closer look

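Among clean calls against control, 8 genes moved in Ras in the direction opposite to all 3 other oncogene groups, whose means lay at least 2-fold on the other side of control, and the difference between Ras and the other lines was itself tested with limma. Pclaf, a PCNA-associated replication factor, was at 11.02 ± 0.08 (SD, n = 3) in Ras, 9.27 ± 0.36 in control and at means of 6.27, 7.05 and 6.93 in the Myc, NeuT and Src lines, 4.27 above the other lines. The basement membrane protein Nid1 was 4.44 above them, at 10.23 ± 0.33 in Ras, 7.01 ± 0.22 in control and 5.68 to 5.88 in the other groups. Vcam1, a leukocyte adhesion receptor, was 3.92 above them, the glucocorticoid-activating enzyme Hsd11b1 3.12 and Heg1 2.56. In the other direction the carboxypeptidase Cpa4 differed by -4.17, at 5.37 ± 0.30 in Ras, 6.57 ± 0.45 in control and 8.50, 11.03 and 9.09 in the Myc, NeuT and Src lines. Tmem54 differed by -2.84 and the kinase Rps6ka6 by -2.77. These genes were selected for this pattern, so their values are a description.

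Probe sets that name several genes or none were outside the comparisons. Of 13767 such sets 345 passed the same test and 2-fold minimum in Ras against control (2.51%), 248 higher and 97 lower.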

How the results depend on the processing

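Of 1309 genes called in Ras against control, 1072 to 1309 were also called in an alternative fit, and 0 of these changed sign. The sign of genes that lost their call was not compared. Counts without a fold minimum were 1693 higher and 1874 lower, and 2778 and 3829 against the other oncogene lines. Without dim genes 335 genes were higher and 413 lower than in the other lines (54.4% of calls higher in the full table, 44.8% here). The cause of that shift was not tested, and fewer genes were tested. Leaving out each array gave 541 to 598 genes higher and 635 to 766 lower against control, and 498 to 600 higher and 439 to 498 lower against the other lines. Replicate numbers were not treated as pairs in the main fits, and not every Ras array correlated best with the control of its own number. A replicate block gave 577 higher and 710 lower against control and 541 and 452 against the other lines, with the call lost for 9 of 131 named genes. Median centring gave 667 and 638, and all 15 arrays 618 and 794. Leaving out control 3 and Ras 3 together, added after seeing the data, gave 521 and 824. Of the 131 named genes that passed, 4 were lost without control 3 and 7 to 13 without another single array. List counts that moved over 1.5 times are given with many of the lists, and others included growth factor genes (8 rose without control 3 and Ras 3), ERK feedback genes (3 fell without control 1 or 2), fibroblast markers (1 rose without control 1 or Ras 2), smooth muscle markers (0 rose with all arrays, 1 without control 3 or Ras 3), MHC class I genes (4 fell without control 3 and Ras 3), mesenchymal genes (5 fell without control 3 and Ras 3) and ribosome genes (3 rose without control 1 or 2). Their cause was not tested.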
